A study of Homo sapiens with 8 samples.

Results

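The regions described here are sites between genes at which HA-tagged RUNX1 was called in every peak list of the study. CUT&RUN (a nuclease, directed by an antibody on permeabilized cells, releases DNA at the antibody's target) was run in HEL, a human erythroleukemia line with erythroid and megakaryocytic features, with an antibody against the HA tag. HEL cells had been transduced with HA-tagged wild-type RUNX1 (WT), HA-tagged RUNX1-4A, HA-tagged RUNX1-4D or an empty vector and selected in puromycin, with 2 numbered replicates of each line. As such mutants are commonly named, 4A carries alanine, which cannot be phosphorylated, and 4D carries aspartate, which mimics phosphorylation, in place of serine or threonine. The antibody read the added protein only, the cells also hold their own RUNX1, and the promoter that drives the transgene and its level are not given in the sources used here. Each of the 6 libraries of WT, 4A and 4D has a list of peaks, and the empty vector line was the background of the peak calling and has no list here. The labels do not say whether replicates came from separate cultures, so every p-value below measures only the spread between these libraries.

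Peaks of the 6 lists that overlapped by at least 1 bp on chromosomes 1 to 22 and X were merged into 33402 regions on hg38. Of these, 3288 (9.84%) held a peak of all 6 lists. The members are the 774 of the 3288 (23.5%, Wilson 95% interval 22.1 to 25, which covers counting error only) whose midpoint lay outside every protein-coding gene and more than 1 kb from either end of any. Another 1386 of the 3288 lay within 1 kb of a gene end and 1128 lay inside genes. The members were chosen by the peak calls, so their presence in all 6 lists is the rule and not a result. The title of the series concerns RUNX1 phosphorylation in progenitors that can become megakaryocytes or red cells, and the question for these regions is where the 3 forms of the protein were called away from genes and how their enrichment compared.

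RUNX1 is a transcription factor of blood development. It binds DNA with its partner CBFB through the Runt domain, at a core of TGTGGT, and acts with other factors such as GATA, ETS, AP-1 and E-box proteins at enhancers. Enhancers can lie far from the genes they serve, so the nearest gene named below is a position and not a target. RUNX1 is required for the first blood stem cells of the embryo and for the maturation of megakaryocytes, the cells that make platelets.

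The genome sequence itself was not given, and the only sequences of the files' build that touched the members were RefSeq windows of 300 bp (GRCh38.p14), from 250 bp before to 50 bp after a gene start. In all, 59 such windows overlapped 52 of the 774 regions, and 57 of the 59 were starts of long non-coding RNAs (lncRNAs). The RUNX core TGTGGT, searched on both strands so that ACCACA counts too, stood in 13 of the 59. The 5 windows below are shown because their core lay close to the place where the 6 lists put their summits, or because the region is the strongest of all or lies beside a blood gene. Each is written 5′ to 3′ on the strand of the lncRNA, and the capitals mark the core.
LINC01063: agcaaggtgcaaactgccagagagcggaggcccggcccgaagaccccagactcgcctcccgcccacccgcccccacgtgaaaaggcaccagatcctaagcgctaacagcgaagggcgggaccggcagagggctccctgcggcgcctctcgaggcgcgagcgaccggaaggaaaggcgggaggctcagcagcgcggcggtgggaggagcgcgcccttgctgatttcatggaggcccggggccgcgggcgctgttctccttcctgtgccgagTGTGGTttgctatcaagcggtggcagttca
LOC105374382: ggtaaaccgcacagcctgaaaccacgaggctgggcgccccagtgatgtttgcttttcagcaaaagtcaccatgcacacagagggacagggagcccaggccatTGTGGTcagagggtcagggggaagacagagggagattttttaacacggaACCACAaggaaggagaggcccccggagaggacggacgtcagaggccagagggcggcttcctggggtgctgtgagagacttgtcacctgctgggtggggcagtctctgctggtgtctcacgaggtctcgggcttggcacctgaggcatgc
LOC105376621: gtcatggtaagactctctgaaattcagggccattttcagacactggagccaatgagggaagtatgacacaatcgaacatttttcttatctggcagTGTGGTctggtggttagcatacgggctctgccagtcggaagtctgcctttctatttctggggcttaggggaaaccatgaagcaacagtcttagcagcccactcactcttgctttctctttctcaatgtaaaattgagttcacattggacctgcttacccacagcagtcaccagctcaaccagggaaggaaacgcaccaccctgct
LOC105376627: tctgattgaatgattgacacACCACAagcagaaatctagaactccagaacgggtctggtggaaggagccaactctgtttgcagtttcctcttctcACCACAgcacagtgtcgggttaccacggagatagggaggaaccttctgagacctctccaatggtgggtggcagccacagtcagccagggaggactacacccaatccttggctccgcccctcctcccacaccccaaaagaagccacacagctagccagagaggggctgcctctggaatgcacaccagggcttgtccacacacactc
LOC124903699: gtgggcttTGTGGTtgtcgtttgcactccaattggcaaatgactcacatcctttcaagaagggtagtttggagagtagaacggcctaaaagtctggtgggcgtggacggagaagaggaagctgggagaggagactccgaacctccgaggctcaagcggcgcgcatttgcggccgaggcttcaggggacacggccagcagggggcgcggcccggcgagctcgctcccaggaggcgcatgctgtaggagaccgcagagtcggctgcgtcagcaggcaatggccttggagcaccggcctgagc
The LINC01063 window (chr3:196632538-196632837, minus strand) lies in the strongest region, whose midpoint is 7.22 kb from NRROS, and its core is 83 bp from the median of the 6 summits. The LOC105374382 window (chr2:28359405-28359704, plus strand) lies between BABAM2 and FOSL2 and holds a core in each orientation, the nearer of them 10 bp from the median summit. The LOC105376621 window (chr11:33893696-33893995, plus strand) lies in a region whose midpoint is 1.65 kb beyond the annotated span of LMO2, and has its core 175 bp from the median summit. The LOC105376627 window (chr11:35082583-35082882, plus strand) lies in a region whose midpoint is 56.4 kb from CD44, whose product is an adhesion receptor of progenitor cells, and has 2 cores, the nearer of them 18 bp from the median summit. The LOC124903699 window (chr16:66873206-66873505, minus strand) lies in a region whose midpoint is 7.19 kb from PDP2, and its core is 11 bp from the median summit.

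Only 26 windows held the median summit of a member, so these shares describe 26 of the 774 regions. TGTGGT stood in 7 of the 26 (26.9%, Wilson interval 13.7 to 46.1), against 13.1% of all 34961 windows on these chromosomes and 16.2% of the 12829 lncRNA windows. Windows with the summit of a region called in all 6 libraries held the core in 14.7% of 985 at gene ends and in 22.4% of 125 inside genes. The interval of the 26 windows starts just above the share of all windows and includes the lncRNA share and both of these shares. The AP-1 letters TGACTCA or TGAGTCA, which are each other's reverse complement, stood in 4 of the 26 (15.4%, 6.15 to 33.5), against 4.92% of all windows, 6.49% of lncRNA windows, which lies inside the interval, and 1.42% of the 985 windows at gene ends. GGAAGT, the ETS core, stood in 7 of the 26 (26.9%), against 22.8% of all windows. The GATA letters AGATAA or TGATAA stood in 3 (11.5%, 4.00 to 29.0). Their share was 16.3% of all windows, 22.9% of lncRNA windows, 4.67% at gene ends and 4.8% inside genes, all inside the interval. The E-box letters CAGCTG or CATCTG stood in 3 (11.5%, 4.00 to 29.0), against 29.7% of all and 33.4% of lncRNA windows. At gene ends and inside genes the E-box share was 21.8% and 22.4%, inside the interval. Both strands were searched for every motif, and a match here is a match of letters only.

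Regions between genes made up less of the regions that more libraries called. Their share was 37.2% of the 11523 regions called in 1 library, then 35.7%, 31.5%, 29.0% and 28% in 2, 3, 4 and 5 libraries, and 23.5% in all 6. Over the same steps the share within 1 kb of a gene end went from 18.4% to 42.2%. Of all 11026 regions between genes, 7.02% (6.56 to 7.51) were called in all 6 lists, against 16.0% (15.2 to 16.8) of those at gene ends and 8.23% (7.78 to 8.70) of those inside genes. Read depth is unknown from peak lists, and on these chromosomes WT had 6752 and 25845 peaks in replicates 1 and 2, against 6256 and 24203 for 4A and 5346 and 21076 for 4D. The members were accordingly 45.3% to 55.6% of the between-gene regions of a replicate 1 list and 9.59% to 12.2% of those of a replicate 2 list.

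The fold enrichment of a peak over the empty vector background and its −log10 q are the authors' values, and they were used only to describe and rank regions within a list. For a region with several peaks in a list, the peak with the highest −log10 q was taken. The median fold of the 774 regions, replicate 1 before replicate 2, was 9.97 and 14.6 (WT), 8.80 and 10.8 (4A) and 8.27 and 11.9 (4D). The median −log10 q was 18.9, 14.4 and 10.9 in the replicate 1 lists and 53.8, 51.1 and 47.2 in the replicate 2 lists, far from the lowest value that any list holds (1.30 to 1.41). Both medians were therefore higher in replicate 2 of every line. Single members lay lower: the lowest −log10 q of a member was 1.65, 1.64 and 1.48 in replicate 1 of WT, 4A and 4D and 1.43 in 4D replicate 2. These are near the lowest values of those lists. In replicate 2 of WT and 4A it was 4.34 and 2.38.

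The median peak width between genes lay 41 to 187 bp below that at gene ends, depending on the library, a difference that did not pass the adjusted test, with a mean difference of -110 ± 60.9 bp (SD, n = 6 libraries; 6 of 6 lower). The median −log10 q lay above that at gene ends in 6 of 6 libraries, by 7.46 ± 7.07 on average (0.338 to 15.5). This difference was small in replicate 1 and larger in replicate 2 of every line. In replicate 1 of WT, 4A and 4D the medians were 18.9, 14.4 and 10.9, against 18.4, 11.6 and 10.5 at gene ends. In replicate 2 they were 53.8, 51.1 and 47.2, against 39.0, 40.3 and 31.6. The width difference was also larger in replicate 2 of every line. Both differences had p = 0.0312 in a two-sided exact sign-flip permutation test, the smallest that 6 libraries allow, and 0.0938 after Benjamini-Hochberg adjustment over the 6 comparisons. The fold was 0.875 ± 0.966 higher (5 of 6 libraries; exact permutation p = 0.0938, adjusted 0.188). Against regions inside genes the mean differences were -9.92 bp in width, 0.0789 in fold and 0.290 in −log10 q, with exact permutation p-values of 0.281, 0.562 and 0.487 after adjustment. No comparison passed the adjusted threshold of 0.05. The tests took the 6 lists as independent and did not allow for replicate number. The classes were also chosen by peak calls, which rest on −log10 q, so the values compared are not independent of the choice. This choice kept 7.02% of regions between genes and 16.0% of those at gene ends. Its effect on the medians was not tested.

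**Figure D1:**
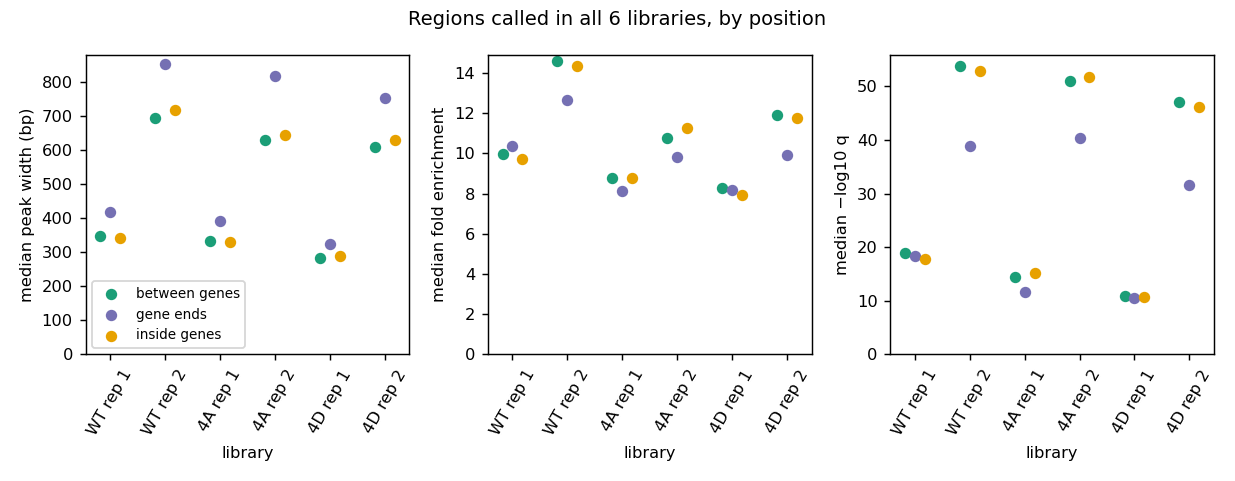
Median peak width (bp), fold enrichment and −log10 q (vertical axes, starting at 0) of the regions called in all 6 libraries, by library (horizontal axis); each point is the median of 774 regions between genes, 1386 at gene ends or 1128 inside genes. The width is lowest at regions between or inside genes in all 6 libraries, and within a line replicate 2 is the higher in width and −log10 q.

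The rule asks that peaks overlap and says nothing of their summits. The 6 summits of a region between genes spanned a median of 92.5 bp (quartiles 56.2 and 149.8), against 126 bp at gene ends and 98 bp inside genes. They fell within 50 bp in 154 of the 774 (19.9%), against 12.2% at gene ends and 20.2% inside genes, and spanned more than 500 bp in 19. The merged regions had a median width of 779 bp (218 to 3597), and 693 of them (89.5%) held a single peak of each list.

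Strength was compared between regions by rank. Within each list the 3288 regions called in all 6 libraries were ranked by fold from 0 to 100, and the 6 ranks of a region were averaged. The highest mean rank, 99.9, belonged to chr3:196631809-196633143, between FBXO45 and NRROS, over the start of LINC01063. NRROS encodes a membrane protein of myeloid cells that limits reactive oxygen and holds latent TGF-β. The fold there was 54.3 and 53.1 (WT), 46.3 and 43.7 (4A) and 42.8 and 46.4 (4D), and the 6 summits lay within 27 bp. Its lowest rank in a list was 99.8.

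The second, chr2:65554630-65555420 (mean rank 99.4), lay 122 kb beyond the start of SPRED2, an inhibitor of RAS-ERK signalling, and 880 kb from MEIS1, a homeobox factor of blood stem cells, in the same gap between genes. Its fold was 29.3 and 53.0 (WT), 46.5 and 33.1 (4A) and 24.9 and 52.0 (4D), with 33 bp between the outermost summits. The order of the libraries differed here from that at NRROS, and every list still ranked the region at 98.6 or above. The third, chr1:36400565-36401776, lay 3.26 kb from LSM10, a protein of histone mRNA processing, with summits within 6 bp and fold values of 30.9 and 43.6 (WT), 29.9 and 34.6 (4A) and 34.3 and 40.1 (4D).

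Among the 20 strongest regions several flank blood genes. The region chr12:54303722-54304867 lay 3.28 kb from NFE2, a factor needed for platelet release, with folds of 27.7 and 29.9 (WT), 19.1 and 23.8 (4A) and 20.6 and 20.3 (4D). Each list has its own scale, and by rank within a list the order differed. The ranks were 98.1 and 93.7 (WT), 94.6 and 94.6 (4A) and 97.3 and 87.0 (4D), so WT replicate 2 ranked below both 4A lists. The region chr1:109864305-109865076 lay 45.8 kb from CSF1, the growth factor of macrophages, with folds of 30.3 and 32.6 (WT), 16.1 and 22.9 (4A) and 21.9 and 22.8 (4D). The region chr19:33260299-33262002 lay 35.3 kb from SLC7A10 and 38.8 kb from CEBPA, the master factor of granulocytes. An enhancer of CEBPA that is active in myeloid progenitors and bound by RUNX1 is known from this side of the gene. The fold at this region was 28.3 and 27.9 (WT), 25 and 15.8 (4A) and 18 and 24.8 (4D).

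Other strong regions lay by genes with general or non-blood roles. They include chr2:47271905-47272766, 95.4 kb from the calmodulin gene CALM2 and 97.0 kb from EPCAM (mean rank 98.4). The region chr2:121134557-121135394 lay between GLI2 and TFCP2L1 (mean rank 98.2). The region chr6:43723645-43725913, the widest of the 20 at 2269 bp, lay 37.0 kb from MRPS18A and 45.4 kb from VEGFA, the vascular growth factor (mean rank 92.0). Within the 20, the fold reached its highest value of 59.2 in WT replicate 2 at chr14:24395261-24396414, 3.17 kb from NYNRIN, where WT replicate 1 gave 24.7.

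**Figure D2:**
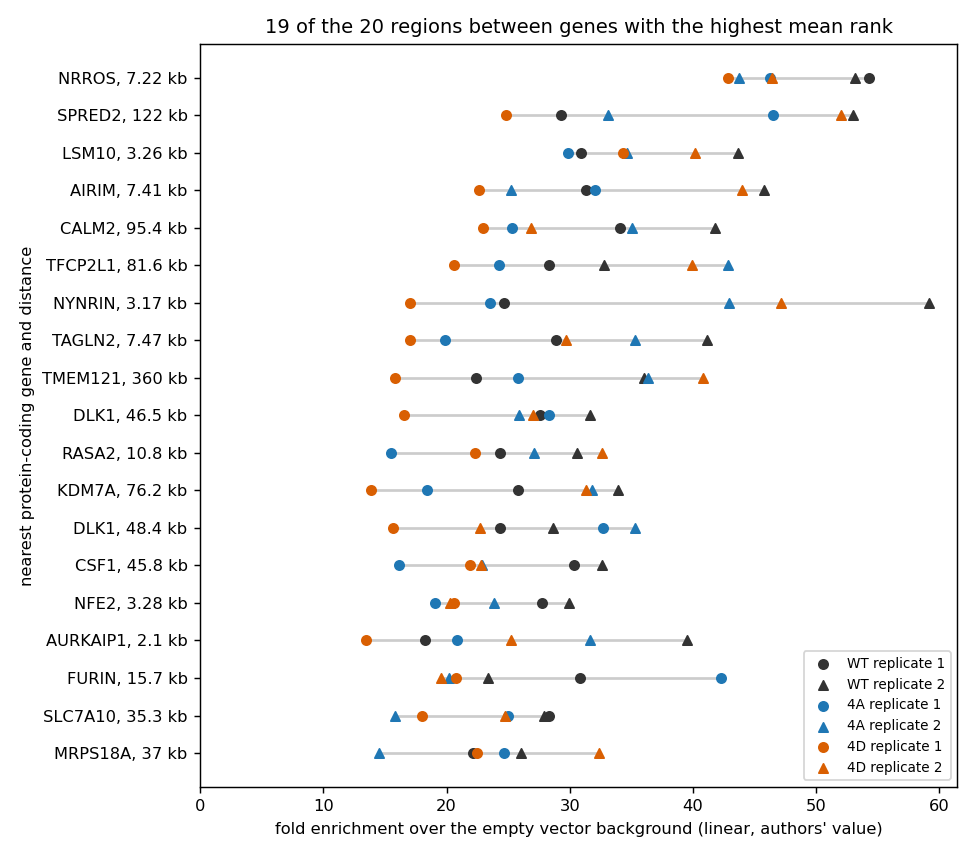
Fold enrichment over the empty vector background (linear, horizontal axis) at 19 of the 20 regions between genes with the highest mean rank, labelled by the nearest protein-coding gene and its distance; circles are replicate 1, triangles replicate 2, and grey lines span the 6 libraries. The region near NRROS lies above 42 in all 6 libraries, and the order of the 3 lines changes from region to region.

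The nearest protein-coding gene was a median of 21.4 kb away (quartiles 8.0 and 56.1), against 27.8 kb for the 10252 regions between genes that were called in 1 to 5 libraries. Of the 774, 134 lay within 5 kb of a gene, 335 between 10 and 50 kb, and 11 (1.42%) more than 500 kb away, against 4.46% of the regions called in 1 to 5 libraries. For 594 regions the strand of the nearest gene was in the tables used. Of these, 305 (51.3%, 47.3 to 55.3) lay beyond its start and 289 beyond its 3′ end, and within 10 kb of the gene the counts were 86 and 84. The regions were thus split about evenly between the sides of a gene.

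The 5 farthest regions lay 1407 kb from SLC39A10, 1279 kb from EYS, 879 kb from NR2F2, 860 kb from FAM181B and 825 kb from DNAH5. The region by EYS, chr6:66985692-66986525, had 6 summits within 24 bp and folds of 12.7 and 14.1 (WT), 15.8 and 10.3 (4A) and 10.5 and 18.2 (4D). The region by NR2F2, chr15:95446909-95447336, had summits within 23 bp and folds between 9.99 and 27.0. At the other end of the rule, the members just outside the 1 kb limit were those at NLK (1.006 kb), C2CD3 and ID1 (both 1.029 kb), TPD52L2 (1.055 kb) and CGAS (1.063 kb), with mean ranks from 7.81 to 45.2. The regions just inside it, which are not members, lay by WNT10B (0.982 kb), PKDCC (0.967 kb), TMPRSS3 (0.966 kb), CCND2 (0.946 kb) and DUSP28 (0.937 kb), with mean ranks from 32.3 to 77.4.

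The rule looks at protein-coding genes only, and 210 of the 774 midpoints lay inside another annotated gene. Of the 774, 187 (24.2%, 21.3 to 27.3) had their midpoint inside an lncRNA, against 25.6% of the regions called in 1 to 5 libraries. A few loci enter by how the gene table types them. The immunoglobulin loci IGH (4 regions) and IGK (1 region) are not typed there as protein-coding genes, and ABO and ORAI1 (1 region each) are typed as transcribed pseudogenes. The strongest IGH region, chr14:105889499-105890729, had a mean rank of 97.0 and folds of 22.4 and 36.1 (WT), 25.8 and 36.3 (4A) and 15.8 and 40.8 (4D). A tRNA gene lay within 1 kb of 5 regions. Of the 58 non-coding blood genes listed that are in the table, 3 (5.17%) lay over or within 1 kb of a region: PVT1, CCDC26 and MIR155HG, the host of miR-155. The same share of all non-coding genes was not computed. The region at MIR155HG, chr21:25563393-25563864, had folds from 6.81 to 11.4.

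Blood transcription factors were the list with the largest share of genes nearest to a region. Of 86 such genes, 21 (24.4%) were the nearest gene of at least 1 of the 774 regions, and 27 regions had them as nearest gene. The background was 673 of all 19970 protein-coding genes (3.37%). Counted by any region within 100 kb in place of the nearest gene, it was 19 of 86 (22.1%), against 1919 of all genes (9.61%), and on this count the myeloid list had the larger share, 11 of 39 (28.2%). A nearest gene can lie farther than 100 kb, so the first count is not contained in the second. These are counts and were not tested.

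Some factors that act with RUNX1 in megakaryocytes and erythroid cells were among these nearest genes, such as LMO2, TAL1 and GFI1B. GATA1, GATA2, FLI1 and KLF1 were not. The region chr11:33892932-33894523, whose window is printed above, lay 1.65 kb beyond LMO2, a bridging protein of the complex that GATA1 and TAL1 form. Its fold was 11.4 and 29.9 (WT), 8.60 and 27.0 (4A) and 7.06 and 23.8 (4D), and the 6 summits fell within 13 bp. Replicate 2 was the higher in all 3 lines. The region chr1:47212961-47213858 lay 2.88 kb beyond the 3′ end of TAL1, the E-box factor of that complex, with folds of 8.31 and 12.3 (WT), 8.62 and 13.8 (4A) and 5.64 and 12.0 (4D). The region chr9:133002766-133004636 lay 10.3 kb beyond the 3′ end of GFI1B, a repressor needed for megakaryocytes and red cells, with folds of 16.5 and 18.7 (WT), 13.1 and 19.7 (4A) and 8.36 and 15.2 (4D). The 3 regions span the middle and upper ranks, with mean ranks of 71.9, 45.1 and 75.4.

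RUNX1 itself was flanked by regions of low rank. The region chr21:35051185-35051818 lay 2.2 kb beyond the start of RUNX1 as the table gives it, with folds of 6.0 and 8.54 (WT), 3.42 and 6.59 (4A) and 2.86 and 5.16 (4D) and a mean rank of 9.55. Its −log10 q in 4D replicate 1 was 1.49, near the lowest value of that list. The region chr21:35394752-35395341 lay 346 kb beyond the start, with folds from 2.80 to 11.1 and a mean rank of 17.8. A region 69.0 kb beyond the start of RUNX3, a RUNX factor of lymphocytes, had a mean rank of 69.2. Among RUNX partners, CDK9, the kinase of transcription elongation, had a region 2.53 kb beyond its start (mean rank 84.1). Of the 30 genes of the partner list, 5 (16.7%) were nearest to a region (CBFA2T3, CDK9, RUNX1, RUNX3 and TLE3) and 6 (20%) lay within 100 kb. The shares of all protein-coding genes were 3.37% and 9.61%, and the differences were not tested.

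Other listed factors with strong regions were ZEB2 (328 kb; mean rank 88.5), JUND (8.85 kb; 88.4), FOXO3 (13.1 kb; 83.4) and FOSL2 (26.2 kb; 82.8). JUND and FOSL2 encode AP-1 subunits, and ZEB2 a repressor of transcription. MEF2C, a factor of megakaryocytes and lymphoid cells, had regions 56.1 and 198 kb beyond its 3′ end, with mean ranks of 69.8 and 68.0. SPI1, which encodes PU.1, lay 16.5 kb from a region whose nearest gene was SLC39A13.

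Megakaryocyte and erythroid genes, which mark the lineages that HEL cells resemble, were counted in the same way. Of 50 megakaryocyte and platelet genes, 5 were nearest (CD9, MYH9, NFE2, PLEK and TGFB1) and 8 had a region within 100 kb. Among the 8 were ITGA2B (92.2 kb), counted through the region nearest to SLC4A1, and VWF (57.8 kb), counted through the region nearest to CD9. CD9 encodes a tetraspanin of platelets, and the region chr12:6182156-6182750, 17.5 kb beyond its start, had folds of 27.3 and 21.4 (WT), 13.5 and 17.3 (4A) and 23.4 and 18.8 (4D) (mean rank 87.9). Of 51 erythroid genes, 3 were nearest (GYPC, SLC4A1 and XK) and 6 lay within 100 kb. SLC4A1 encodes the anion exchanger of red cells, and its region, 11.8 kb away, had folds between 6.51 and 9.51 and a mean rank of 34.2. The share nearest was 10% and 5.88% in these lists, against 3.37% of all protein-coding genes. The share within 100 kb was 16% and 11.8%, against 9.61% of all protein-coding genes. These differences and the difference from the transcription factors were not tested.

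Among the lists of this paragraph, the share of genes nearest to a region ran from 0% (tissues outside the blood) to 14.8% (cytokine signalling). The share of all protein-coding genes was 3.37%, and the differences were not tested. Of 54 genes of cytokine signalling, 8 were nearest to a region and 11 within 100 kb, including SMAD7, an inhibitor of TGF-β signalling (22.8 kb; mean rank 88.2), and SMAD3, a mediator of it (28.1 kb; 77.9). At SMAD3 the fold was 11.4 and 41.0 (WT), 17.2 and 29.2 (4A) and 5.84 and 30.7 (4D), so replicate 2 stood above replicate 1 in each line. The widest region of this list, chr5:132068881-132071384 (2504 bp), lay between IL3 and CSF2, both myeloid growth factors, and its summits spanned 1415 bp. Of 39 myeloid genes, 4 were nearest (CSF2RB, CSF3R, IL6R and NRROS) and 11 within 100 kb. Of 38 lymphoid genes, 4 were nearest (CD2, EBF1, GZMB and PRF1) and 7 within 100 kb. Of 42 genes of the cell cycle and apoptosis, 5 were nearest (BTG2, CCND2, CCNE1, GADD45A and MYC), and of 24 stem and progenitor genes, 3 (AVP, CD34 and CD44). None of the 36 genes of tissues outside the blood was the nearest gene of a region, and the list is too short to set this apart from 3.37%. Of these genes 2, KRT14 and NPPA, lay within 100 kb (5.56%, against 9.61% of all genes). The shares within 100 kb were 20.4% (cytokine signalling), 28.2% (myeloid) and 18.4% (lymphoid), against the same 9.61%.

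Most regions stood alone. With neighbours joined where their midpoints were within 50 kb, 622 regions had no neighbour, 50 pairs held 100 regions, and 15 groups of 3 or more held 52. The gap with the most regions lay on chromosome 15 between TLE3, a corepressor that binds RUNX proteins, and UACA, and was 557 kb long. It held 45 union regions classed as between genes, of which 7 were members. The mean ranks of the 7 ran from 25.3 to 90.8, and 4 of them lay within 31.0 kb.

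The group with most regions lay between BEGAIN and DLK1 on chromosome 14, where 5 regions spanned 74.7 kb. DLK1 is an imprinted gene of a membrane protein that is known from progenitor cells. The strongest of the 5, chr14:100679731-100681023, lay 46.5 kb from DLK1, with folds of 27.6 and 31.6 (WT), 28.3 and 25.9 (4A) and 16.5 and 27.0 (4D). Its neighbour chr14:100677594-100679328 had folds of 24.3 and 28.6 (WT), 32.7 and 35.3 (4A) and 15.6 and 22.7 (4D). The mean ranks of these neighbours were 96.4 and 95.1, and those of the other 3 regions of the group were 45.1 to 74.5.

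Other groups held fewer regions. Between EPS8L3 and CSF1 on chromosome 1, 4 regions fell within 10.3 kb (mean ranks 46.2 to 71.7), and the strong region named above lay in the same gap, nearer to CSF1. The IGH group held 4 regions in 25.3 kb. Between PPCDC and C15orf39, and between CYP11A1 and SEMA7A, each gap on chromosome 15 held 4 regions. CD34, the marker of blood stem cells, had 3 regions 8.0, 27.7 and 42.1 kb away, with mean ranks of 39.6, 33.6 and 11.9. BTG2, an antiproliferative gene, had 3 regions, 4.64 and 16.0 kb to its lower side and 2.24 kb to its upper side. PIM1, a survival kinase, closed a gap with a group of 3 regions beyond FGD2.

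Of the gaps with 4 or more members and a gene on both sides, the one from MYC to GSDMC was the longest, 1962 kb with 40 union regions between genes. Of the 4 members, 3 lay in the PVT1 lncRNA, 149, 175 and 302 kb from MYC, with mean ranks of 30.0, 32.9 and 58.3. The fourth, chr8:129581735-129582580, lay in the CCDC26 lncRNA, 1839 kb from MYC, with folds of 14.3 and 13.1 (WT), 8.94 and 15.4 (4A) and 9.95 and 12.2 (4D) and a mean rank of 63.7. Distal enhancers of MYC in blood cells are known from this gap.

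**Figure D3:**
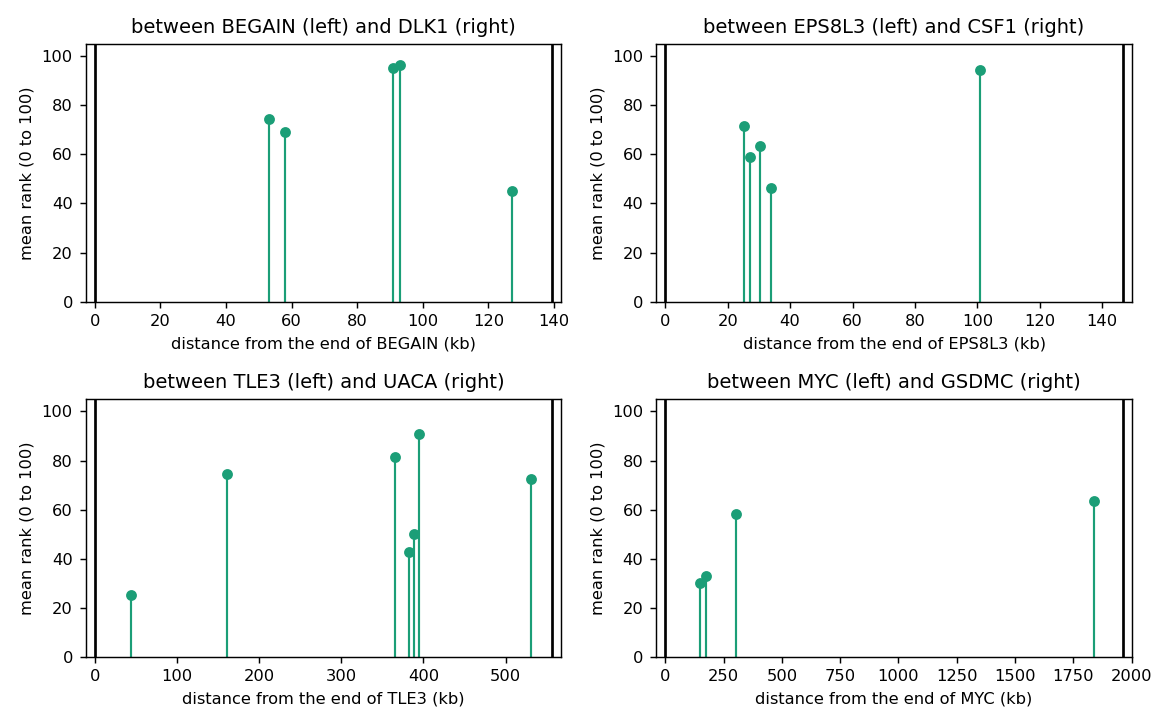
Regions between genes called in all 6 libraries in 4 gaps, placed by their distance in kb from the lower flanking gene (horizontal axis; black lines are the gene ends) with the mean rank by fold as height (0 to 100). The BEGAIN to DLK1 gap holds 5 regions, the EPS8L3 to CSF1 gap 5, the TLE3 to UACA gap 7 and the MYC to GSDMC gap 4, and the regions of the CSF1 gap fall into a group of 4 and a single strong region.

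By chromosome, the share of union regions between genes that were called in all 6 libraries was highest on chromosomes 15 (55 of 494, 11.1%, 8.65 to 14.2) and 9 (39 of 352, 11.1%, 8.21 to 14.8) and lowest on chromosome 22 (3 of 250, 1.2%, 0.409 to 3.47). At gene ends and inside genes the shares on these chromosomes were 10.8%, 10.7% and 6.52%. Chromosomes 9 and 15 were the only ones on which the share between genes was not below that of the other classes.

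**Figure D4:**
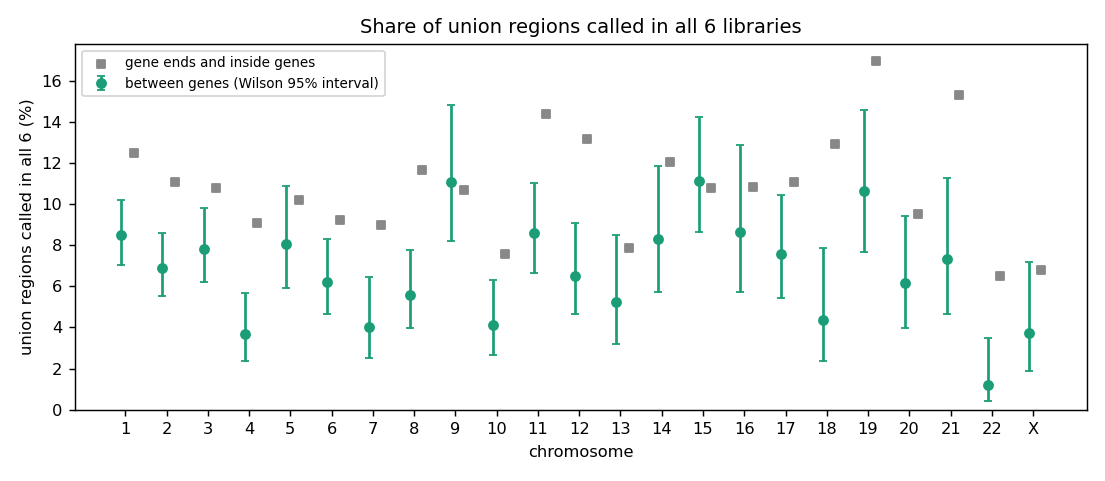
Percent of union regions called in all 6 libraries (vertical axis, from 0) by chromosome; green points are regions between genes with Wilson 95% intervals, which cover counting error only, and grey squares are all other regions. Chromosome 22 has the lowest green point, 1.2%, and chromosomes 9 and 15 the highest, 11.1%.

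The 3 forms of RUNX1 were compared by rank within each list. A region was counted where both ranks of a line lay above both ranks of the other, and the same share of all 3288 regions is given as background. In 69 regions (8.91%) 4A lay above WT, against 8.42% of all regions, and in 63 (8.14%) WT lay above 4A, against 8.76%. In 77 (9.95%) 4D lay above WT, against 8.27%, and in 70 (9.04%) WT lay above 4D, against 9.58%. In 88 (11.4%) 4D lay above 4A, against 9.88%, and in 99 (12.8%) 4A lay above 4D, against 11.3%. By fold rank all 6 shares lay within 2 percentage points of their background. The 3 comparisons share libraries, and with 2 against 2 libraries no exact permutation p can be below 0.33, so single regions were not tested. Ranked by −log10 q in place of fold, 106 regions (13.7%) had 4A above WT, against 10.1% of all regions, and 72 (9.30%) WT above 4A, against 9.18%. On that ranking 94 (12.1%) had 4D above WT, against 9.49%, and 80 (10.3%) WT above 4D, against 10.2%, while 91 (11.8%) had 4D above 4A, against 11.3%, and 119 (15.4%) 4A above 4D, against 13.8%. The distance from background was widest for 4A above WT and 4D above WT, where regions inside genes stood at 11.5% and 12.2% and those at gene ends at 7.0% and 5.77%.

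The replicate numbers also pair the libraries: ranks of the 774 regions correlated between lists of the same number (Spearman rho 0.597 to 0.716 in replicate 1 and 0.781 to 0.872 in replicate 2) more than between lists of a line (0.373 to 0.409). Lists that shared neither line nor number stood at 0.353 to 0.397, a range that overlaps that of lists of a line. The replicates of a line thus agreed little more than lists of different lines and numbers, which limits every comparison of lines here. With replicate number as a block, counting regions that moved the same way within each number, the counts were 205 with 4A above WT (26.5%, against 24.0% of all regions) and 160 with WT above 4A (20.7%, against 23.1%). They were 233 with 4D above WT (30.1%, against 27.3%) and 180 with WT above 4D (23.3%, against 26.5%), and 187 with 4D above 4A (24.2%, against 24.3%) and 223 with 4A above 4D (28.8%, against 27.0%). The median rank of the 774 regions was 48.9 and 54.6 (WT), 53.2 and 52.0 (4A) and 51.5 and 55.8 (4D). Within a replicate number, 4D lay above WT in both, while 4A lay above WT and 4D in replicate 1 only. The test of the line means did not use this pairing. The line means differed by 0.836 (4A minus WT), 1.91 (4D minus WT) and 1.07 (4D minus 4A), with two-sided exact permutation p-values of 1, 0.667 and 1.

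**Figure D5:**
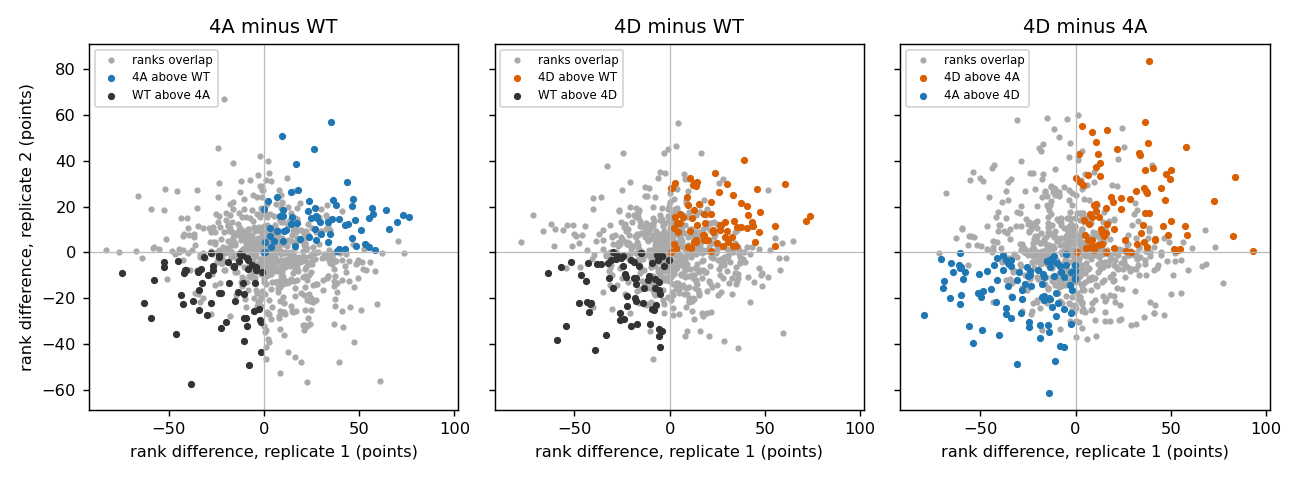
Difference of rank between lines (points on the 0 to 100 scale) in replicate 1 (horizontal axis) and replicate 2 (vertical axis), for each of the 774 regions; coloured points are regions whose ranks do not overlap between the lines and grey points are the others. The cloud is centred near 0 in every panel, and the coloured points are 69 and 63, 77 and 70, and 88 and 99 regions.

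The regions with the largest differences were picked for them and are described without a test. Several low ranks below rest on weak peaks. The −log10 q in 4A replicate 1 was 2.53 at the STT3B region and 3.33 at the KCNA5 region. In 4D replicate 1 it was 2.63 at the PIM1 region and 2.23 at the MASP1 region. At chr3:31448767-31449246, 83.9 kb from STT3B, an oligosaccharyltransferase subunit, the ranks were 9.75 and 9.58 in 4A, against 48.0 and 67.3 in WT and 48.1 and 93.4 in 4D. Here 4A was the lowest in both replicates. At chr12:5165149-5165904, 119 kb from the potassium channel gene KCNA5, 4A also ranked lowest, at 5.87 and 48.2, against 64.9 and 77 in WT and 89.6 and 80.9 in 4D. At chr9:13974803-13975265, 107 kb from NFIB, a developmental transcription factor, 4D ranked at 74.3 and 22.7, against 2.54 and 9.0 in WT and 1.43 and 0.411 in 4A. At chr14:24665537-24666095, 31.6 kb from the granzyme gene GZMB, the 4D ranks were 73.4 and 74.0, those of WT 12.8 and 44.3 and those of 4A 40.2 and 30.6.

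The opposite order was found at other sites. At chr6:37102455-37102956, 67.4 kb from PIM1, 4D ranked at 7.82 and 16.6, against 47.0 and 59.4 in WT and 56.5 and 33.3 in 4A. At chr9:136619554-136620502, 38.8 kb from EGFL7, which encodes a secreted vascular protein and hosts a microRNA, 4A ranked at 88.8 and 83.8, against 9.5 and 56.4 in 4D and 24.8 and 65.4 in WT. At chr5:180373416-180373792, 20.3 kb from GFPT2, 4A ranked at 62.8 and 81.2, against 27.4 and 24.2 in WT and 28.8 and 52.3 in 4D. At chr3:187210697-187211186, 6.34 kb from MASP1, the 4D ranks were 1.58 and 24.8, against 60.8 and 63.1 in WT. With 4D above WT again, as at NFIB and GZMB, the farthest region of all, 1407 kb from SLC39A10, ranked at 77.8 and 22.8 in 4D. It ranked at 4.38 and 7.1 in WT and at 46.7 and 1.22 in 4A.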

How the data were processed

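The series holds 8 CUT&RUN libraries of 4 lines with 2 replicates each, of which the 6 of WT, 4A and 4D have a peak list. Per the submitters' processing notes, reads were handled on hg38 with MACS2 2.2.7.1, Bowtie2 2.4.2, cutadapt 3.4, deepTools 3.5.1 and Picard 2.25.6 (in no stated order); filters are not given in the sources used here, and read depth is unknown. Peaks were called per library, and the deposited files give for each peak a score, a fold enrichment (a linear ratio), −log10 p-values, −log10 q-values and a summit offset. The score was not used, and the authors' fold and −log10 q served to rank, filter or describe peaks within a list.

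Computed here, with Python 3, pandas and SciPy: merged regions (1 bp overlap), position against RefSeq genes of GRCh38.p14, ranks, Wilson intervals, exact sign-flip and permutation tests, gene distances, groups (50 kb) and motif matches. Functions were tested on simulated peaks. The design asked for motifs around summits, and RefSeq promoter windows were used instead, a choice made after seeing which files were there. Strand came from the same windows. Same-numbered libraries deviated together from their line means (correlations over 774 regions of 0.588 for 4A and WT, 0.679 for 4D and WT and 0.539 for 4D and 4A), so the numbers pair the libraries. The members, the 11 gene lists and the tests were chosen with earlier results of these data known. Regions named are the 20 strongest (1 of them is not reported here), those nearest to list genes (with full values for some), the 5 farthest and 5 nearest to the 1 kb limit, the 5 largest groups, the 5 widest, those at listed non-coding genes and the 3 with the largest difference per pair of lines and direction; of the regions these rules hold, the text gives a part. The gaps with 4 or more regions, the regions with MEIS1, CEBPA or SPI1 on another side, and those at the typed loci (IGH, IGK, ABO, ORAI1) were singled out after their values were seen.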

Additional observations from a re-analysis of the deposited data

Results flagged for a closer look

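Each of the 6 lists also holds peaks on the mitochondrial genome, which the rule leaves out. They number 6 and 8 in WT replicates 1 and 2, 5 and 1 in 4A, and 7 and 15 in 4D. They lie outside the main measurement, and no list of the empty vector line was analysed here to set beside them.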

How the results depend on the processing

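The number of regions ran from 517 (no annotated gene of any type within 1 kb) to 713 (summits within 150 bp), 747 (whole region outside) and, with a library left out, 775 to 1015, against 774. Their share of the regions called in all libraries lay between 23.5% and 24.8% when the summits, the −log10 q limit or the libraries were changed. It was not computed where the gene rule was changed. There the count fell, also to 640 at more than 5 kb from genes and 547 at more than 10 kb, so the share depends on that rule. At −log10 q of at least 5 there were 576 regions, and the differences from regions inside genes changed sign, to -0.105 in fold and -0.0658 in −log10 q. Neither had been called, and the cause was not tested. At that limit the −log10 q difference from gene ends was 6.84 (exact sign-flip permutation p = 0.0625, adjusted 0.188). This p was no longer the smallest that 6 libraries allow, so the median was not above that at gene ends in all 6. With ranks by −log10 q, 106 regions had 4A above WT in place of 69 (13.7% against 10.1% of all regions). The counts with replicate block were 205, 160, 233, 180, 187 and 223, in the order of the report, and it is the looser rule. Leaving out each replicate in turn, so that 1 library stood against 2, gave 220 to 273 (4A above WT), 193 to 218 (WT above 4A), 220 to 261 (4D above WT), 203 to 246 (WT above 4D), 224 to 232 (4D above 4A) and 224 to 279 (4A above 4D), since fewer values have to agree. With a library left out, the same share of all 3288 regions was not computed, so these counts do not show how far the lines differ. Counting any list gene within 100 kb gave 6 erythroid, 7 lymphoid, 8 megakaryocyte, 11 myeloid and 2 non-blood genes. As shares of their lists these were 11.8%, 18.4%, 16%, 28.2% and 5.56%, against 9.61% of all protein-coding genes. A gap of 25 kb left 6 groups in place of 15. The motif share was 11.5% for TGTGGTT and 53.8% for TGTGG, by the length of the motif. Summit windows of 50 and 250 bp were not run, since no genome was given. Depth is unknown, so the lack of a peak in a list cannot be read either way.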

Other observations

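Smaller groups of 3 regions lay in other gaps. Around IRF1, an interferon-response factor, 3 regions between SLC22A5 and IL5 spanned 75.1 kb. Their mean ranks were 30.7 to 49.0, and the one between IRF1 and IL5, chr5:132500838-132501359, had folds of 15.0 and 9.21 in WT against 7.61 and 8.92 for 4A and 11.1 and 8.76 for 4D. Beyond IER5, an immediate early response gene, 3 regions lay 12.2, 60.4 and 67.0 kb from the gene, and the last of them had the highest mean rank, 77. Between RPN1 and RAB7A, 3 regions spanned 41.0 kb, and chr3:128714940-128715558 had a mean rank of 85.8 with 6 summits within 33 bp. Between MYCN and CYRIA, 3 regions spanned 39.3 kb with mean ranks of 37.6 to 75.8.

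The tightest group of 3 lay beyond ERMARD on chromosome 6, in 4.78 kb. Its strongest region, chr6:169803109-169804089, overlay LINC00574 and had folds of 36.3 in 4A replicate 1 and 12.3 in 4A replicate 2, with 23.6 and 23.5 in WT. The other regions of that group had mean ranks of 34.1 and 32.0. The widest region of all, chr7:5426447-5430043 (3597 bp), lay 4.41 kb from TNRC18 with a mean rank of 54.5, and its summits spanned 786 bp.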
